A study of Mus musculus with 13 samples.

Results

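The early response genes Egr1, Egr2, Egr3, Nr4a1, Nr4a2, Nr4a3, Ier2, Ier3, Ier5 and Btg2 were described in RNA sequencing libraries of mouse nervous system macrophages. These 10 genes were taken by symbol from a count table of 48587 gene symbols. All 10 were found, and all 10 passed the filter on low counts, as did 13246 genes in all. The samples were macrophages of the sciatic nerve, a peripheral nerve (4 libraries), macrophages of the optic nerve, which belongs to the central nervous system (4 libraries), and brain microglia (5 libraries). All came from mice of the C57BL/6J strain, with no other allele or treatment in the labels. The sources used here give no age, sex or isolation steps, nor whether libraries came from separate animals or from pools, so the p-values measure the spread between libraries, which may be technical.

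Early response genes are switched on within minutes of a stimulus without new protein synthesis. Signals through the MAP kinase cascade act on ELK factors and serum response factor, and cyclic AMP and calcium signals act on CREB. EGR proteins are zinc finger transcription factors, NR4A proteins are orphan nuclear receptors that need no ligand, and the IER and BTG2 proteins modulate survival, stress responses and growth. In macrophages these genes are known to respond to bacterial products, cytokines and growth factors, and transcripts of this class are also known to appear during tissue dissociation.

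Promoter sequences were available in a RefSeq table (GRCm38.p6) for 7 of the 10 genes, in 11 windows of 300 bases that run from 250 bases before to 50 bases after a start site. The windows of Egr2, Nr4a1, Nr4a2, Nr4a3 and Btg2 are shown because they hold sequence elements bound by serum response factor (the CArG box) or by CREB (the cyclic AMP response element, CRE, TGACGTCA, with its core TGACG). Capitals mark CArG boxes and CRE cores on either strand, so that a core on the opposite strand reads CGTCA. The Egr2 window lies at chr10:67537619-67537918 on the plus strand, the Nr4a1 window at chr15:101266596-101266895 (plus), the Nr4a2 window at chr2:57123954-57124253 (minus), the Nr4a3 window at chr4:48045055-48045354 (plus) and the Btg2 window at chr1:134079106-134079405 (minus).
Egr2: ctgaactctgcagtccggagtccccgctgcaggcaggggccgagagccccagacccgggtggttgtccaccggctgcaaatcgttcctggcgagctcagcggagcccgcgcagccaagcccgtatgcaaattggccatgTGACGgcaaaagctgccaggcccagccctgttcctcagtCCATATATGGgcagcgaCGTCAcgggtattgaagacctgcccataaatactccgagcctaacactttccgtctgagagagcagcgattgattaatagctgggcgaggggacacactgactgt
Nr4a1: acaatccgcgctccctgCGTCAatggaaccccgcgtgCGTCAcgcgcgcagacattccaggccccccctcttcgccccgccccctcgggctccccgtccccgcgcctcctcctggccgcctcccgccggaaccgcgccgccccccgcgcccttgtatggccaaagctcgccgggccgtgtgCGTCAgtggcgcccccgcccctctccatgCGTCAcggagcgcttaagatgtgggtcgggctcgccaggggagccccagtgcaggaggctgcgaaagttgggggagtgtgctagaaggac
Nr4a2: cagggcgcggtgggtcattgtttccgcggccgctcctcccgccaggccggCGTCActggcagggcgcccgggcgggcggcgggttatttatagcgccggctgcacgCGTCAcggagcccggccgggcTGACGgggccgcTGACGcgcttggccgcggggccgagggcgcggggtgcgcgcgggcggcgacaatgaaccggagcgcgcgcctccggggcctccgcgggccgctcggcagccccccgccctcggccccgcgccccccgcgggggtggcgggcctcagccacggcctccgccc
Nr4a3: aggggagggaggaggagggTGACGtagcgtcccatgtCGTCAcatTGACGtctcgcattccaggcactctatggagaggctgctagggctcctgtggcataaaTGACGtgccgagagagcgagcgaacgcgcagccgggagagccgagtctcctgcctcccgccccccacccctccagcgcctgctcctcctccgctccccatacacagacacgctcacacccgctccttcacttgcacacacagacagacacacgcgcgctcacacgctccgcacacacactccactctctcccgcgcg
Btg2: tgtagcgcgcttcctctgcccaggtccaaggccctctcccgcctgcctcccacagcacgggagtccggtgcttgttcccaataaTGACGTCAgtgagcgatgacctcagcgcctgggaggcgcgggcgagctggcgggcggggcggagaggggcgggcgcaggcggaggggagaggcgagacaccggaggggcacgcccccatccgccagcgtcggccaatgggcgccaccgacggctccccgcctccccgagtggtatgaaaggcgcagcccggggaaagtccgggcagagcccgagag

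The CRE core TGACG was found on either strand in 7 of the 11 windows and in 5 of the 7 genes (Egr2, Nr4a1, Nr4a2, Nr4a3 and Btg2), and in 20.8% of all 32851 windows of the table. The full CRE TGACGTCA was found in Btg2, at position -166 relative to the start site, and in 1.79% of all windows. It contains the core on both strands. A CArG box was found in 4 of the 5 Egr2 windows and in 1.63% of all windows. In the Egr2 window shown it begins at position -72, between CRE cores that begin at -111 and -55. This window overlaps 2 of the other windows and shares the site with them. The NF-kB motif was found in Egr2, Nr4a1, Ier3 and Btg2 and in 16.0% of all windows, the EGR site (GCGTGGGCG or GCGGGGGCG) in Nr4a1 and in 3.47%, and TATAAA in Nr4a2 and in 13.6%. No window of the 7 genes held AAAGGTCA, the NR4A monomer element, which is in 1.51% of all windows. The Ier5 window held none of the motifs searched. These are matches of letters, which show neither binding nor its absence.

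**Figure D1:**
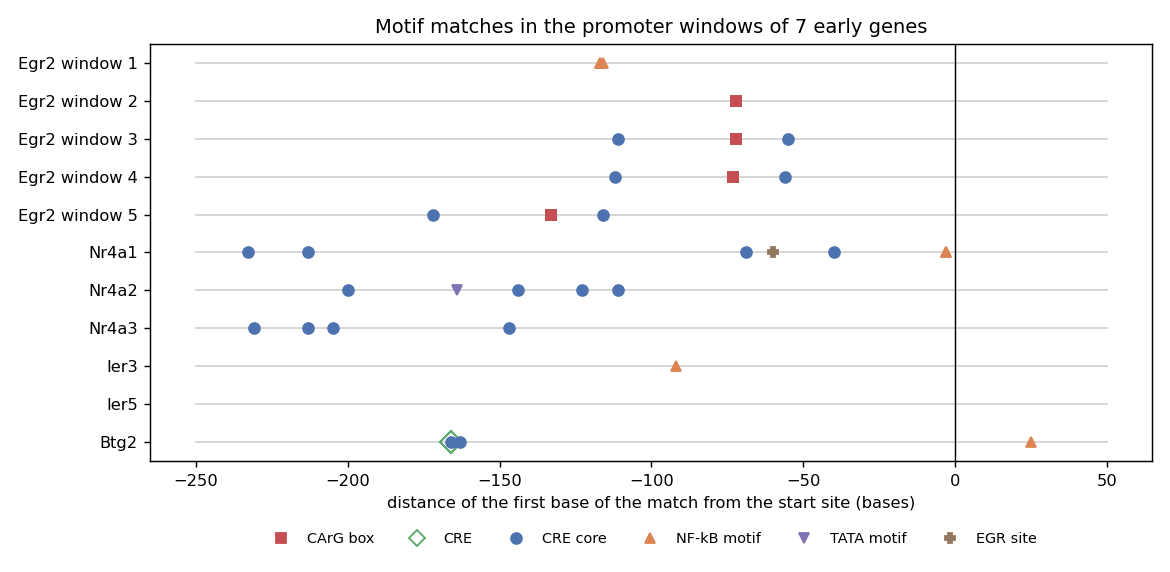
Matches of 6 motifs in the 11 promoter windows of 7 early genes, by the distance in bases of their first base from the start site (vertical line at 0). CRE cores stand in the windows of Egr2, all 3 Nr4a genes and Btg2, CArG boxes in 4 Egr2 windows, and none of the motifs in the Ier5 window.

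Libraries held between 10.9 and 23.5 M counts each. Levels are given as CPM, counts per M counts of the library after TMM scaling, and in bulk RNA a lower level through fewer cells of a type and through less RNA per cell cannot be told apart. Of 11 microglia markers, 9 exceeded 1 CPM in the sciatic nerve and all 11 in optic nerve and brain, with summed levels of 3295 to 3535, 28528 to 31290.4 and 34039 to 64351 CPM in that order. Of 8 border and nerve macrophage markers, 8, 8 and 1 exceeded 1 CPM, with sums of 21864 to 31964, 198 to 368 and 8.52 to 25.6 CPM. Fibroblast markers had the same order of tissues as most of the 10 genes, with 5 of 6 over 1 CPM and sums of 26.6 to 153.5 CPM in the sciatic nerve, 0 of 6 and sums of 0.112 to 3.55 CPM in the optic nerve, and 0 of 6 and sums of 0 to 0.285 CPM in brain, where Col3a1 and Lum were at 0. Monocyte markers had this order too: the 3 reported here summed to 385 to 562 CPM in the sciatic nerve, 7.03 to 23.2 CPM in the optic nerve and 0.641 to 9.82 CPM in brain, with 2 of 3 over 1 CPM in each tissue. Schwann cell markers summed to 1034 to 1181, 529 to 744 and 339.8 to 751 CPM (3, 3 and 2 of 7 over 1 CPM), with Sox10 at 0 in sciatic nerve, Prx at 0 in optic nerve and Prx and Cdh19 at 0 in brain. Astrocyte markers had their highest sums in brain, at 0.899 to 4.77, 75.2 to 106 and 184 to 243 CPM. However, 1, 3 and 1 of the 5 astrocyte markers exceeded 1 CPM, the most in optic nerve. Endothelial markers also had their highest sums in brain, at 0.623 to 6.66, 8.70 to 15.6 and 17.1 to 47.7 CPM (1, 2 and 2 of 5 over 1 CPM). Oligodendrocyte markers were highest in optic nerve, at 53.0 to 78.2, 153 to 205 and 50.6 to 60.4 CPM. Sums of the 5 neutrophil markers had the order of the fibroblast markers, at 1.33 to 1.94, 0.323 to 0.554 and 0 to 0.0933 CPM. Each sum was that of 1 gene. S100a8, S100a9, Ly6g and Mmp8 were at 0 in both nerves, which leaves Retnlg, and S100a8, Ly6g, Retnlg and Mmp8 were at 0 in brain. The part of these cell types in the levels of the early genes was not tested. Brain replicates 1 and 2 stood apart. The chi-square per degree of freedom over genes was 129.7 to 335 for pairs of brain libraries that include either, and 15.7 to 16.7 among replicates 3, 4 and 5. Replicate 1 also had a mitochondrial share of 3.79% of its counts, while the other 4 ranged from 0.410% to 0.868%. Without both libraries all 10 early genes were still called higher in each nerve than in brain, and 7 rather than 5 were called between the nerves.

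All 10 genes were higher in sciatic nerve macrophages and in optic nerve macrophages than in brain microglia, and in both comparisons the libraries did not overlap for any of them. Together they held 0.767% to 0.855% of all counts in sciatic nerve libraries, 0.425% to 0.695% in optic nerve libraries and 0.0402% to 0.0561% in brain libraries. In sciatic nerve against brain all 10 were called higher (edgeR quasi-likelihood test, Benjamini-Hochberg adjusted p from 3.16e-13 to 4.41e-05), where 24.1% of all genes tested were called higher and 24.3% lower. In optic nerve against brain all 10 were called higher (adjusted p from 4.40e-12 to 6.36e-05), where 19.6% of all genes were called higher and 17.4% lower. Over all genes, libraries did not overlap and were higher for 22.1% in sciatic nerve and 17.4% in optic nerve, and lower for 19.2% and 14.4%. The median log2 fold change of the 10 genes was 8.42 in sciatic nerve and 6.39 in optic nerve relative to brain, beside -0.09 and -0.08 over all genes. Both comparisons share the brain libraries. Between the nerves the genes parted, with 4 called higher in sciatic nerve, 1 lower and 5 not called, where 10.9% of all genes were called higher and 10.9% lower.

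**Figure D2:**
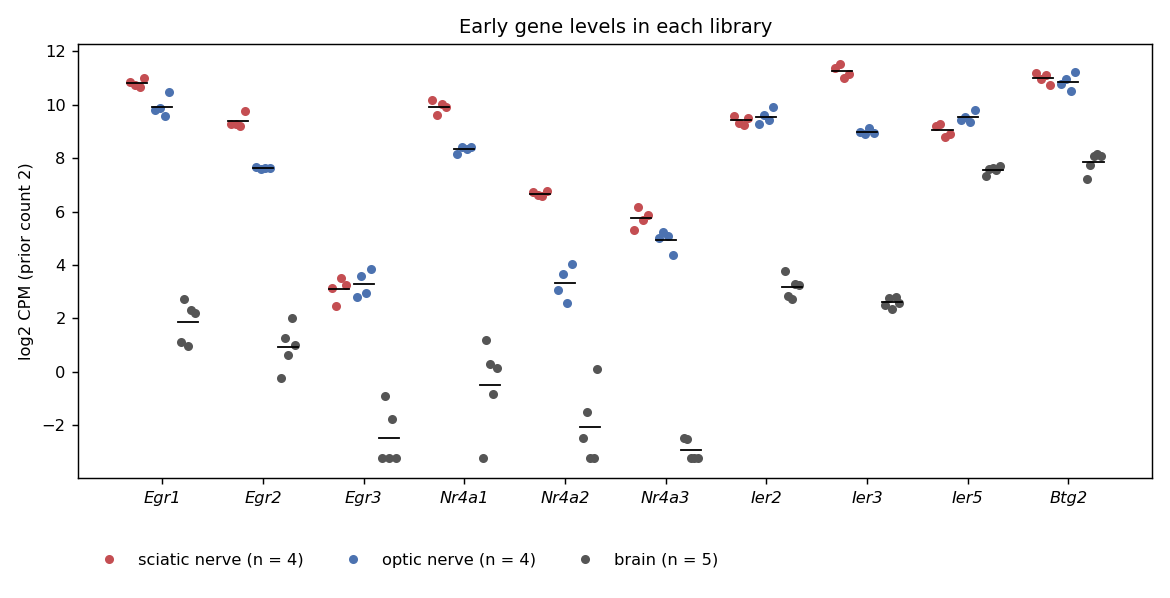
Level of each gene in every library as log2 CPM (prior count 2), with sciatic nerve, optic nerve and brain from left to right and a line at the mean of each tissue. All 10 genes lie lowest in brain, where Ier5 and Btg2 are still at 161 to 207 and 148 to 283 CPM, and Nr4a3 has 0 to 2 counts a library.

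Egr1, the most studied EGR factor, measured 1871, 1687, 1622 and 2057 CPM in the sciatic nerve, 885, 946, 760.3 and 1436 CPM in the optic nerve and 2.04, 6.51, 1.87, 4.88 and 4.47 CPM in brain. Every sciatic nerve library exceeded every optic nerve library, of which replicate 4 was the highest. The log2 fold change relative to brain was 8.81 (SE 0.39) in sciatic nerve and 7.97 (SE 0.38) in optic nerve. Between sciatic and optic nerve it was 0.85 (SE 0.31), which missed the threshold in edgeR's quasi-likelihood test (adjusted p = 0.0662). The call turned on which libraries were in the fit: the adjusted p was 0.0363 without optic nerve replicate 4, and 0.0301, 0.0403 and 0.0353 without brain replicates 1, 2 and 3. Brain libraries bear on this comparison only through the scaling, filter and spread shared in the fit. With the 2 nerves alone the log2 fold change was 0.81 (SE 0.18, edgeR adjusted p = 0.00549).

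Egr2, which controls peripheral myelination in Schwann cells and is also known from alternatively activated macrophages, measured 626, 615, 589 and 872 CPM in the sciatic nerve, 205, 192, 197 and 199 CPM in the optic nerve and 0.755, 2.28, 1.45, 3.90 and 1.92 CPM in brain. The optic nerve libraries were nearly equal, and the sciatic nerve libraries were all higher, with replicate 4 above the other 3. Egr2 rose in sciatic nerve relative to brain (log2 fold change 8.31, SE 0.36) and to optic nerve (1.77, SE 0.29, edgeR adjusted p = 3.74e-04), and in optic nerve relative to brain (6.54, SE 0.33).

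Egr3, a relative with the same zinc finger type, was scarce at 8.63, 5.396, 11.4 and 9.39 CPM in the sciatic nerve, 6.94, 11.8, 7.70 and 14.3 CPM in the optic nerve and 0, 0.427, 0, 0.189 and 0 CPM in brain. The nerve libraries overlapped (log2 fold change -0.23, SE 0.73, edgeR adjusted p = 0.875), while both nerves lay above brain. Relative to brain the log2 fold change was 5.93 (SE 0.85) in sciatic nerve and 6.16 (SE 0.86) in optic nerve, and 7.13 and 7.35 without brain replicate 2, which held 12 of the 17 brain counts.

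Nr4a1, an NR4A receptor needed for patrolling monocytes, measured 1162, 778, 1051 and 958 CPM in the sciatic nerve, 283, 340.1, 326 and 344 CPM in the optic nerve and 0, 2.17, 1.12, 0.454 and 1.00 CPM in brain. The 3 tissues did not overlap. Nr4a1 rose in sciatic nerve relative to brain (log2 fold change 9.92, SE 0.53) and to optic nerve (1.61, SE 0.40, edgeR adjusted p = 0.00864), and in optic nerve relative to brain (8.31, SE 0.50). The library with no Nr4a1 count was brain replicate 1.

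Nr4a2, known for its role in dopaminergic neurons and as a restraint on inflammatory genes, measured 107, 98.0, 95.7 and 109 CPM in the sciatic nerve, 8.20, 12.6, 5.92 and 16.2 CPM in the optic nerve and 0.0755, 0.249, 0, 0 and 0.960 CPM in brain. The sciatic nerve libraries lay close together and far above the optic nerve libraries (log2 fold change 3.25, SE 0.59, edgeR adjusted p = 8.12e-04), the largest difference between the nerves among the 10 genes. Relative to brain it was 8.53 (SE 0.72) in sciatic nerve and 5.28 (SE 0.66) in optic nerve. Brain replicate 5 held 23 of the 31 brain counts, and without it these values were 10.07 and 6.82.

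Nr4a3, an NR4A receptor that binds the same DNA element as its relatives, measured 39.8, 71.8, 51.0 and 59.2 CPM in the sciatic nerve, 32.01, 37.8, 34.2 and 20.9 CPM in the optic nerve and 0.0755, 0.0712, 0, 0 and 0 CPM in brain, from 3 counts in all brain libraries. The nerve libraries did not overlap but the difference missed the threshold (log2 fold change 0.83, SE 0.30, edgeR adjusted p = 0.0675, and 0.0397 and 0.0484 without brain replicates 1 and 2). With the 2 nerves alone it was 0.80 (SE 0.23, edgeR adjusted p = 0.0235). The pooled ratio to brain was 2085 (95% counting interval 713 to 10114) in sciatic nerve and 1186 (405 to 5754) in optic nerve. Without brain replicate 2, which gave 2 of the 3 counts, the fitted log2 fold change relative to brain was 11.52 in sciatic nerve and 10.69 in optic nerve, against 10.70 and 9.88 with it. Without brain replicates 1 and 2, which held all 3 counts, the fitted fold was 4.91 times larger in sciatic nerve and 4.94 times larger in optic nerve, set against no brain count and so dependent on the fit.

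Ier2, a small nuclear protein induced by growth factors, measured 771, 643, 602 and 725 CPM in the sciatic nerve, 617, 778, 688 and 974 CPM in the optic nerve and 13.4, 6.98, 6.44, 9.62 and 9.52 CPM in brain. Both nerves were alike in range, with a log2 fold change of -0.16 (SE 0.21, edgeR adjusted p = 0.669). It rose relative to brain by 6.23 (SE 0.24) in sciatic nerve and 6.38 (SE 0.24) in optic nerve on the log2 scale.

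Ier3, a regulator of apoptosis also called IEX-1, measured 2682, 2969, 2070.2 and 2291 CPM in the sciatic nerve, 509, 474, 553 and 489 CPM in the optic nerve and 5.52, 6.73, 5.04, 6.89 and 5.80 CPM in brain. Each tissue formed a narrow band apart from the others. Ier3 rose in sciatic nerve relative to brain (log2 fold change 8.70, SE 0.19) and to optic nerve (2.30, SE 0.15, edgeR adjusted p = 4.00e-08), and in optic nerve relative to brain (6.40, SE 0.17).

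Ier5, known to promote heat shock factor activity, was expressed in all 3 tissues, at 591, 616, 445 and 483 CPM in the sciatic nerve, 681, 739.7, 655 and 896 CPM in the optic nerve and 161, 193, 199, 189 and 207 CPM in brain. It was the only one of the 10 genes called lower in sciatic than in optic nerve (log2 fold change -0.48, SE 0.15, edgeR adjusted p = 0.0337). That call was lost without sciatic nerve replicate 3 or 4 (adjusted p = 0.106 and 0.0951) or optic nerve replicate 2 or 4 (0.0638 and 0.112). The change relative to brain was the smallest of the 10 in both nerves, at 1.49 (SE 0.14) in sciatic nerve and 1.97 (SE 0.14) in optic nerve.

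Btg2, an antiproliferative protein that promotes mRNA deadenylation, measured 2330.2, 1981, 2225 and 1731 CPM in the sciatic nerve, 1738, 2009, 1451 and 2379.9 CPM in the optic nerve and 148, 214, 269, 283 and 268 CPM in brain. The nerve libraries overlapped throughout (log2 fold change 0.13, SE 0.21, edgeR adjusted p = 0.736), and all lay above brain. It rose relative to brain by 3.13 (SE 0.21) in sciatic nerve and 3.00 (SE 0.20) in optic nerve on the log2 scale. Brain replicate 1 had the lowest level in brain.

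**Figure D3:**
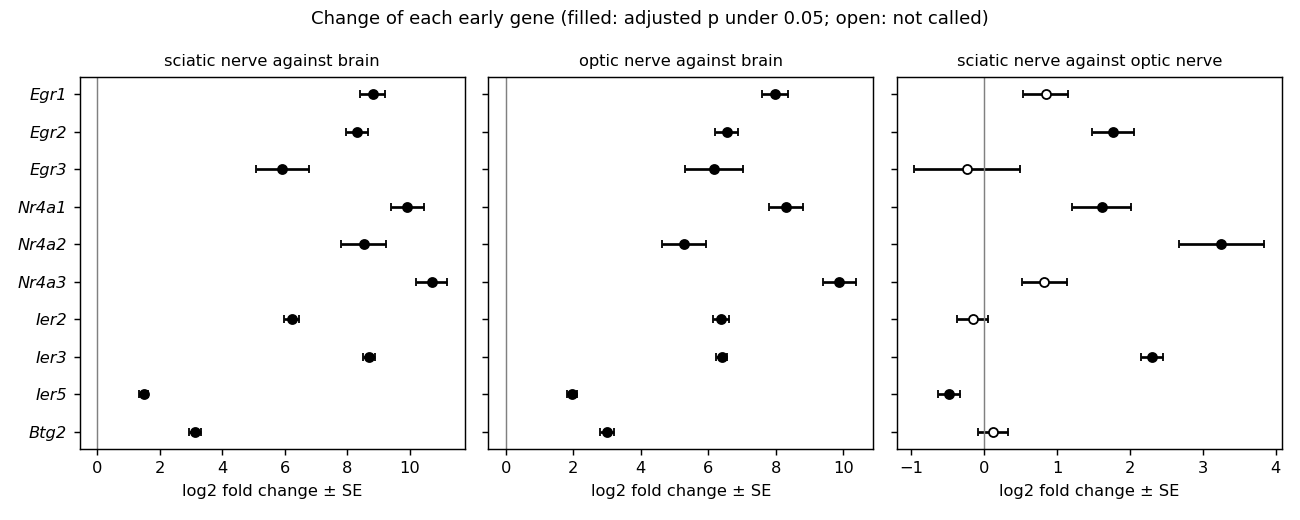
Log2 fold change of each gene with its standard error in the 3 comparisons (x axes differ), with filled points at an adjusted p under 0.05. All 10 lie above 0 relative to brain, and between the nerves Nr4a2 is the highest at 3.25 and Ier5 the lowest at -0.48.

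In order of level, sciatic nerve came first, optic nerve next and brain last for Egr2, Nr4a1, Nr4a2 and Ier3, with every step called. For Ier5 the order was optic nerve, sciatic nerve and brain. In the fit of all 13 libraries, sciatic and optic nerve were not told apart by the test for Egr1, Egr3, Nr4a3, Ier2 and Btg2. With the 2 nerves alone, Egr1 and Nr4a3 were called higher in sciatic nerve (edgeR adjusted p = 0.00549 and 0.0235). Libraries of the nerves did not overlap for 7 of the 10 genes, Egr1, Egr2, Nr4a1, Nr4a2, Nr4a3 and Ier3 higher and Ier5 lower in sciatic nerve, where 15.5% of all genes did not overlap and were higher and 14.4% were lower. Among the optic nerve libraries, replicate 4 was the highest for 7 of the 10 genes (Egr1, Egr3, Nr4a1, Nr4a2, Ier2, Ier5 and Btg2), while no sciatic nerve library was the highest for more than 3.

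Compared per length of the merged exons of each gene in the GENCODE M21 annotation, the order of the genes differed between tissues. In sciatic nerve Ier3 led at 2213 ± 354 CPM per kb (SD, n = 4), followed by Btg2 at 754 ± 97.5, Ier2 at 450.3 ± 50.3 and Egr1 at 404 ± 43.8 CPM per kb, of which Ier2 and Egr1 lay within their spread. In optic nerve Btg2 led at 691 ± 144 CPM per kb, followed by Ier2 at 502 ± 102 and Ier3 at 448 ± 30.4 CPM per kb, which lay within their spread, as did Ier5 at 227 ± 32.9 and Egr1 at 225 ± 66.1 CPM per kb (n = 4). In brain Btg2 at 86.2 ± 20.5 and Ier5 at 57.9 ± 5.31 CPM per kb stood above the rest, and the next, Ier2, was at 6.04 ± 1.83 CPM per kb (n = 5). Nr4a1 was the highest of the 3 Nr4a genes per length in each tissue, at 281 ± 46.4, 92.0 ± 7.98 and 0.271 ± 0.233 CPM per kb in sciatic nerve, optic nerve and brain. Egr3 was the lowest of the Egr genes in each, at 1.97 ± 0.564, 2.31 ± 0.789 and 0.0280 ± 0.0428 CPM per kb.

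In 4 of 6 pairs of family members, the balance between the genes differed between the nerves without overlap of libraries, and in 2 pairs the libraries overlapped. How often other pairs of genes do so was not computed. For single genes, libraries of the nerves did not overlap in 15.5% (higher in sciatic nerve) and 14.4% (lower) of all genes. The log2 ratio of 2 genes within a library, in which gene length cancels between tissues, was compared over 6 pairs and 3 tissue pairs, 18 comparisons in all, with a two-sided exact permutation test on the libraries. The ratio of Ier3 to Ier2 was 1.86 ± 0.24 in sciatic nerve and -0.57 ± 0.34 in optic nerve on the log2 scale (SD, n = 4 each), a difference of 2.44 (exact permutation p = 0.0286, the smallest that 4 libraries against 4 can give, adjusted over the 18 comparisons p = 0.0468). Brain, at -0.57 ± 0.46 (n = 5), had nearly the mean of optic nerve, and their libraries overlapped (difference -0.0048, exact permutation p = 0.984).

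Within the Egr family, the log2 ratio of Egr2 to Egr1 was -1.43 ± 0.14 in sciatic nerve and -2.30 ± 0.39 in optic nerve (difference 0.87, exact permutation p = 0.0286, n = 4 each), and that of Egr3 to Egr1 was -7.73 ± 0.46 in sciatic nerve and -6.63 ± 0.27 in optic nerve (difference -1.09, exact permutation p = 0.0286). Relative to Egr1, Egr2 was thus higher and Egr3 lower in sciatic nerve. The level of Egr3 itself was not told apart between the nerves (log2 fold change -0.23, edgeR adjusted p = 0.875). Within the Nr4a family, the ratio of Nr4a2 to Nr4a1 was -3.26 ± 0.23 in sciatic nerve and -5.00 ± 0.58 in optic nerve (difference 1.74, exact permutation p = 0.0286), while that of Nr4a3 to Nr4a1 overlapped at -4.17 ± 0.60 and -3.40 ± 0.43 (exact permutation p = 0.0857). The ratio of Ier5 to Ier2 was -0.37 ± 0.22 in sciatic nerve and -0.03 ± 0.12 in optic nerve, which overlapped (exact permutation p = 0.114). In brain it was 4.39 ± 0.53 in brain (sciatic nerve against brain -4.76, optic nerve against brain -4.42, exact permutation p = 0.0159 in both, the smallest that 4 libraries against 5 can give). Of the 18 comparisons, 12 had an unadjusted p under 0.05 and 11 an adjusted one, but with a prior count of 0.5 in place of 2 none of the 18 did after adjustment, and the 4 differences between the nerves then stood at an adjusted p = 0.0635. Ratios of Egr3 and the Nr4a genes in brain rest on 0 to 61 counts a library and move with the prior count.

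**Figure D4:**
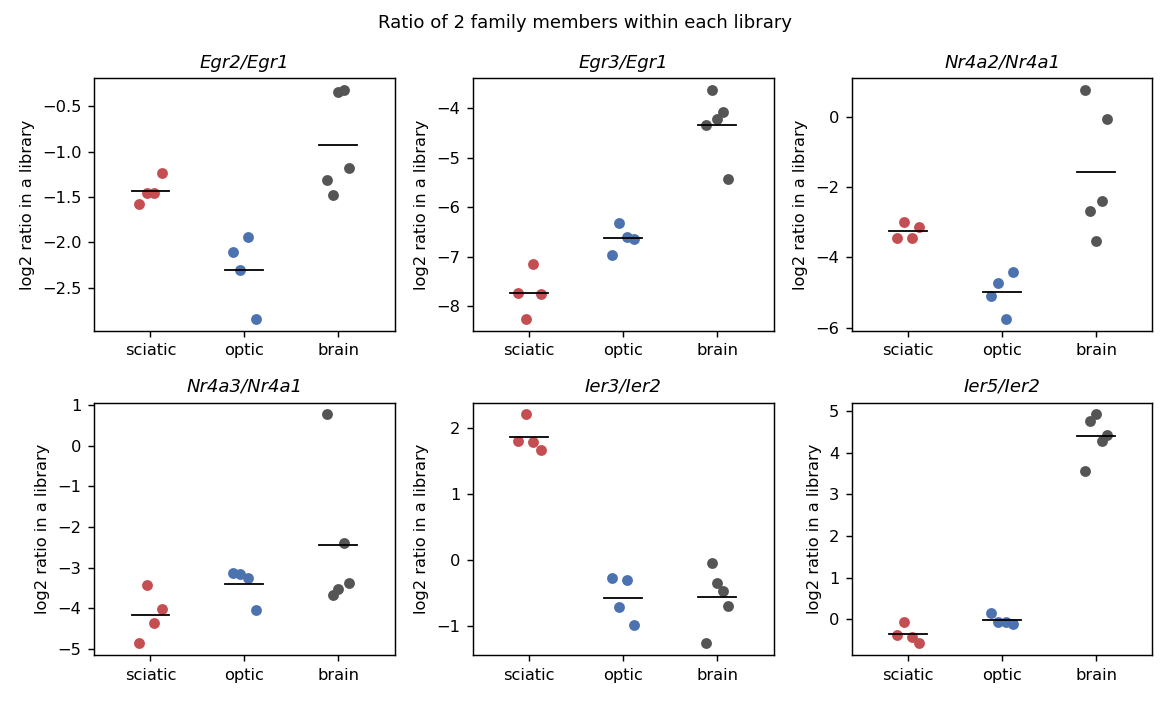
Log2 ratio of 2 genes of a family within each library, with sciatic nerve, optic nerve and brain from left to right and a line at each mean. The ratio of Ier3 to Ier2 is 1.66 to 2.21 in sciatic nerve and -0.99 to -0.28 in optic nerve, and that of Ier5 to Ier2 is 3.57 to 4.93 in brain.

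Genes that belong to the same families but not to the 10 also rose in both nerves. Of 6 relatives tested, all 6 were called higher than brain in each nerve, beside 24.1% of all genes in sciatic nerve and 19.6% in optic nerve. Between the nerves 0 of 6 were called (edgeR adjusted p from 0.0941 to 0.856, unadjusted p under 0.05 in 2 of 6). Of all genes 10.9% were called in each direction there, and 0 of 6 is not far from that share. Egr4 measured 0.730 ± 0.971 CPM in the sciatic nerve and 4.32 ± 2.49 CPM in the optic nerve, and none of its counts fell in brain. Against a floor of 3 counts over the brain libraries it was at least 28.3-fold higher in sciatic nerve, and in optic nerve at least 160.1-fold higher. Tob2, an antiproliferative relative of Btg2, had the smallest change, at 169 ± 24.4 CPM in the sciatic nerve, 183 ± 27.0 CPM in the optic nerve and 62.0 ± 13.5 CPM in brain (a log2 fold change of 1.45, SE 0.17, and 1.56, SE 0.17). The median log2 fold change of the relatives was 3.77 in sciatic nerve and 3.24 in optic nerve, or 3.72 and 3.24 with Egr4 at its bound.

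Other early response genes did the same. Of 27 tested, 26 were called higher and 1 lower in each nerve relative to brain. Median log2 fold changes were 5.81 (sciatic nerve) and 4.62 (optic nerve). Among all genes, 24.1% were called higher and 24.3% lower in the sciatic nerve comparison, and 19.6% and 17.4% in the optic nerve comparison. Set against optic nerve, 8 of the 27 were higher and 1 lower in sciatic nerve, beside 10.9% of all genes each way. Earlier results of these data were known when the genes were chosen. Fosb, an AP-1 subunit, had the largest fitted change in both comparisons with brain, at 295 ± 29.7 CPM in the sciatic nerve, 119 ± 30.3 CPM in the optic nerve and 1 count in all brain libraries. Rgs2, a regulator of G protein signalling, was the 1 gene that fell, to 442 ± 118 CPM in the sciatic nerve and 641 ± 166 CPM in the optic nerve, against 1285 ± 238 CPM in brain (a log2 fold change of -1.54, SE 0.23, and -1.002, SE 0.22). Between the nerves Cyr61, a matricellular protein, was the most raised (56.0 ± 10.0 CPM in the sciatic, 3.38 ± 1.76 CPM in the optic nerve, a log2 fold change of 4.05, SE 0.48) and Rgs1 the 1 that fell (147 ± 66.1 and 293 ± 52.2 CPM, -0.997, SE 0.27). Cyr61 is also expressed by fibroblasts, whose markers were highest in sciatic nerve, and their part in its level was not tested.

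Among the kinases and transcription factors that act upstream, the shares called relative to brain in sciatic nerve were close to those of all genes. Of 21 tested, 5 were called higher and 6 lower in sciatic nerve relative to brain, beside 24.1% and 24.3% of all genes. In optic nerve relative to brain 2 were higher and 4 lower, beside 19.6% and 17.4%, and in sciatic relative to optic nerve 4 were higher and 2 lower, beside 10.9% each. Their median log2 fold change was 0.02 in sciatic nerve and -0.02 in optic nerve relative to brain. Srf, serum response factor, rose to 15.1 ± 1.34 CPM in the sciatic nerve and 25.5 ± 2.19 CPM in the optic nerve, against 8.31 ± 3.83 CPM in brain (a log2 fold change of 0.87, SE 0.28, and 1.62, SE 0.28). Elk1, a partner of serum response factor, was the most raised in sciatic nerve, at 11.2 ± 4.25 CPM, against 3.67 ± 1.32 CPM in the optic nerve and 3.37 ± 1.74 CPM in brain (a log2 fold change of 1.73, SE 0.51 relative to brain, and 1.61, SE 0.54 relative to optic nerve). Rps6ka1, the ERK-activated kinase RSK1, fell furthest in sciatic nerve, to 96.9 ± 15.4 CPM, against 464 ± 48.1 CPM in the optic nerve and 649.9 ± 161 CPM in brain (-2.75, SE 0.20, and -2.26, SE 0.20). In optic nerve the furthest lowered relative to brain was Mkl1, a coactivator of serum response factor, at 5.25 ± 1.18 against 20.6 ± 0.939 CPM (-1.97, SE 0.28).

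Of 5 partners and corepressors of the EGR and NR4A factors, 2 rose and 2 fell in sciatic nerve relative to brain, 2 rose and 1 fell in the optic nerve set against brain, and 1 rose and 3 fell in sciatic relative to optic nerve. With 5 genes these counts are read against the same shares of all genes (24.1% and 24.3%, 19.6% and 17.4%, 10.9% each) and describe single genes. Nab1, a corepressor of EGR factors, measured 178 ± 15.8 CPM in the sciatic nerve, 112 ± 24.3 CPM in the optic nerve and 18.2 ± 4.48 CPM in brain, and its relative Nab2 46.5 ± 7.04, 82.6 ± 13.2 and 12.7 ± 1.01 CPM in the same order. Both exceeded brain in each nerve (log2 fold change 3.29, SE 0.21, and 2.62, SE 0.20, for Nab1, and 1.87, SE 0.17, and 2.70, SE 0.17, for Nab2). Between the nerves they went opposite ways, with Nab1 higher in sciatic nerve (0.67, SE 0.21, edgeR adjusted p = 0.0303) and Nab2 lower (-0.83, SE 0.17, adjusted p = 0.00263). Rxra, the retinoid X receptor that pairs with Nr4a1 and Nr4a2, fell to 19.3 ± 10.7 CPM in the sciatic nerve and 19.5 ± 7.28 CPM in the optic nerve, against 49.6 ± 9.73 CPM in brain (-1.36, SE 0.34, and -1.35, SE 0.34). Rxrg was the furthest lowered in sciatic relative to optic nerve, at 0.231 ± 0.414 against 9.07 ± 5.63 CPM (-5.24, SE 1.61, edgeR adjusted p = 0.0293).

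**Figure D5:**
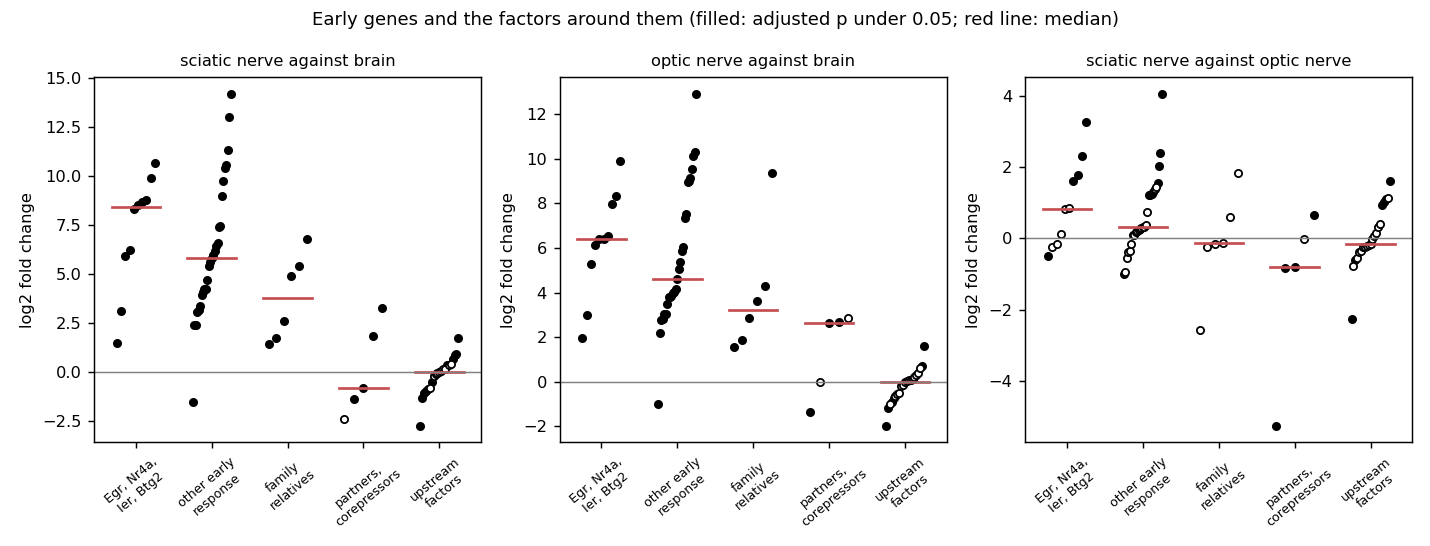
Log2 fold changes of the 10 genes and of 4 gene lists in the 3 comparisons (y axes differ), sorted within each list, with filled points at an adjusted p under 0.05 and a line at the median. The medians relative to brain are 8.42 and 6.39 for the 10 genes and 0.02 and -0.02 for the upstream factors.

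The genes whose pattern over the 13 libraries was most like that of Egr1, Nr4a1, Ier2 and Btg2 were sought by the root mean square difference of log2 CPM (prior count 2), each gene centred on its mean. Nearest to Egr1 were Lyz1 (0.436), Nfkbid (0.475), Nfkbiz (0.605), Phlda1 (0.649) and Id3 (0.714). Nfkbid and Nfkbiz encode nuclear regulators of NF-kB, and Nfkbiz measured 1585 ± 40.9 CPM in the sciatic nerve, 1158 ± 221 CPM in the optic nerve and 5.22 ± 1.04 CPM in brain. Nearest to Nr4a1 were Fos (0.917), Id3 (0.983), Tnfsf9, AI607873 and Lyz1 (1.02 each), farther off than the neighbours of the other three. Nearest to Ier2 were Enkur (0.370), Arc (0.493), Cdkn1a (0.528), Srxn1 (0.538) and Marcksl1 (0.539), and nearest to Btg2 were Fgl2 (0.230), Cyp51 (0.244), Mcl1 (0.247), H2-D1 (0.284) and Tlr2 (0.299). Mcl1, which blocks apoptosis, measured 3539 ± 134 CPM in the sciatic nerve, 2807 ± 198 CPM in the optic nerve and 343 ± 105 CPM in brain. Some of these neighbours lay near 0 in brain, where the prior count sets their values. Mean brain levels were 0 CPM for Enkur and 0.00757 CPM for Arc, against 9.20 CPM for Ier2. They were 0.0779 CPM for Lyz1, 0.0370 CPM for Phlda1 and 0.00933 CPM for Id3, against 3.95 CPM for Egr1. With a prior count of 0.5, 2 of the 5 genes remained for Egr1, 4 for Nr4a1, 3 for Ier2 and 5 for Btg2.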

How the data were processed

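The authors deposited raw counts of reads for each gene symbol. STAR, featureCounts 1.5.1 and mm10 are named in the submitters' processing notes, while the annotation, the strand setting and the handling of multi-mapping reads were not given in those sources. No gene of GENCODE M21 overlaps any of the 10 genes. A prefix that no label explains marks 5 columns, and they were assigned to the brain samples, the only group otherwise without columns. The number of columns not used is 0. Of the monocyte markers, 3 are reported here. The 10 genes and the gene lists were chosen with earlier results of these data known.

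Counts were fitted in R 4.3.3 with edgeR 4.0.16 (filterByExpr by tissue, TMM, quasi-likelihood F-test, all 13 libraries in 1 fit with tissue as factor and no replicate block) and adjusted by Benjamini-Hochberg over 13246 genes, with calls at an adjusted p under 0.05. The standard error is the size of the log2 fold change over the root of F. The code was tested on simulated data. Within-library ratios used log2 CPM with a prior count of 2 and exact permutation tests in scipy 1.17.1. Named genes are the 10, the called genes with the highest and lowest change of each list, and Srf, Nab1, Nab2 and Rxra. The 5 nearest genes outside the 10 are also named. Counting intervals and floors cover counting error only. Alternatives were DESeq2 1.42.0 (its test and its size factors), no filter, the 2 tissues alone, a replicate block, a prior count of 0.5 and leaving out libraries.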

Additional observations from a re-analysis of the deposited data

Results flagged for a closer look

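In 2 of the 30 groups of libraries (10 genes in 3 tissues) 1 library stood far from the rest by Dixon's ratio, a test that flags about 1 in 20 groups by chance. Egr2 measured 872 CPM in the sciatic nerve replicate 4 against 589 to 626 CPM in the other 3. Nr4a2 measured 0.960 CPM (23 counts) in brain replicate 5 against 0 to 0.249 CPM in the other 4.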

How the results depend on the processing

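Relative to brain, 190 of 190 recomputed log2 fold changes of the 10 genes kept their direction and call in sciatic nerve, and 190 of 190 in optic nerve. Between the nerves 170 of 190 kept both, 6 lost the call (all Ier5), 14 gained it (Egr1 and Nr4a3) and none reversed. The number of the 10 genes called between the nerves ran from 4 to 7, and from 4 to 7 when 1 library was left out. It was 6 with DESeq2 size factors, 4 with no filter, and 7 with DESeq2's test, with the 2 tissues alone and without brain replicates 1 and 2. No pairing of samples by replicate number was seen (correlations of deviations from the tissue means between same-numbered libraries from -0.0776 to 0.0773, 4 of 12 libraries nearest to their own number). With so few libraries a tissue, this cannot exclude that same-numbered libraries came from the same animals. With the replicate block 5 were called: Egr1 was called (adjusted p = 0.0390) and Ier5 was not (0.0785). Over all genes, the counts called stayed within 1.5 times under every alternative run. With a prior count of 0.5, 0 of the 18 ratio comparisons were called. With only the prior count changed, 2 uncalled differences between optic nerve and brain changed sign. Nr4a3 to Nr4a1 went from -0.95 to 0.0879, and Ier3 to Ier2 from -0.0048 to 0.00104. With a prior count of 2 their exact permutation p was 0.413 and 0.984, and Nr4a3 held 3 brain counts. Fitted changes relative to brain of Egr3, Nr4a2 and Nr4a3 rest on 3 to 31 brain counts.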

Other observations

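Across the families, the 10 genes did not sort by name. By the root mean square difference of centred log2 CPM (prior count 2) over the 13 libraries, the most alike pair was Egr2 and Ier3 (0.475). Egr1 and Nr4a3 (0.642) followed, then Egr1 and Egr2 (0.678). Nr4a3 held 3 counts over the brain libraries, so its brain values and its distances rest on the prior count. Its fitted log2 fold changes relative to brain were 10.70 in sciatic and 9.88 in optic nerve, against 8.81 and 7.97 for Egr1. The least alike were Nr4a1 and Ier5 (4.03). These are descriptions over libraries that fall into 3 tissues.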
